A study of Mus musculus with 2 samples.

Results

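The Sprr and Lce genes form the core of the epidermal differentiation complex of mouse chromosome 3, and 35 protein-coding genes of 21887 carry these names, 14 Sprr and 21 Lce. The genes were chosen by symbol and chromosome, and the Sprr2a genes among them were singled out by a measured value, the presence of peaks in the treatment library that overlap no control peak. Peaks were counted over the span of the 35 genes, chr3:92215835-93019061 in mm10, with 10 kb added on each side. This region of 823 kb held 12 of the 64910 treatment peaks and 0 of the 85137 control peaks on chromosomes 1 to 19, X and Y.

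ATAC-seq marks accessible DNA by the insertion of sequencing adapters with a transposase. The cells were mouse CD8+ T cells, with 1 library titled treatment and 1 titled control. A second label field calls the treatment library "Combined treatment" and the control library "Treatment", so that field names neither library as untreated, and the agents are not given in the labels. The strain, age and number of animals are not given either, the genotype field names no allele, and the series title uses the name Peml-1 for the cells. With 1 library per group no difference could be set against a spread between replicates, no test was made, and all values describe these libraries.

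The small proline-rich proteins (Sprr) and the late cornified envelope proteins (Lce) are precursors of the cornified envelope, the cross-linked protein shell that replaces the membrane of keratinocytes at the skin surface. Transglutaminases join them to loricrin and involucrin, whose genes lie in the same complex. The genes arose by tandem duplication, are switched on late in epidermal differentiation, and are not known as genes of T cells. In the mouse intestine Sprr2a is also known as an antibacterial protein of epithelial cells.

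The Sprr2a genes are tandem copies, and their promoter sequences are shown because peaks were found at copies that these letters do not tell apart. RefSeq windows of 300 bases, from 250 before to 50 after the gene start, were at hand for 34 of the 35 genes (GRCm38.p6, the assembly of mm10). The windows of Sprr2a1 (chr3:92215585-92215884, plus strand) and Sprr2a2 (chr3:92250397-92250696, plus strand) were identical in all 300 bases. The window of Sprr2a3 (chr3:92285054-92285353, plus strand) is set 28 bases further upstream, and its remaining 272 bases matched the first 272 of the other copies without a difference. Capitals mark these 272 bases in the first pair of sequences below. The neighbouring gene Sprr2b (chr3:92316455-92316754, plus strand) is given for contrast, with a match to the AP-1 motif in capitals.
Sprr2a1 and Sprr2a2: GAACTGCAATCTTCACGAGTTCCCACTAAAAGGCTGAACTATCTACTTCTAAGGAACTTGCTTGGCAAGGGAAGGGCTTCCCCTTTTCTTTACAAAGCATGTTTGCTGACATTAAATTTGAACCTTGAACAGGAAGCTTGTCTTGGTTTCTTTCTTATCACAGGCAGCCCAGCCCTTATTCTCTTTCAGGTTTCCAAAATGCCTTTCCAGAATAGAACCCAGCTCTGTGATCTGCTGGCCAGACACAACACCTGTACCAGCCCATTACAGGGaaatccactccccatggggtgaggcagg
Sprr2a3: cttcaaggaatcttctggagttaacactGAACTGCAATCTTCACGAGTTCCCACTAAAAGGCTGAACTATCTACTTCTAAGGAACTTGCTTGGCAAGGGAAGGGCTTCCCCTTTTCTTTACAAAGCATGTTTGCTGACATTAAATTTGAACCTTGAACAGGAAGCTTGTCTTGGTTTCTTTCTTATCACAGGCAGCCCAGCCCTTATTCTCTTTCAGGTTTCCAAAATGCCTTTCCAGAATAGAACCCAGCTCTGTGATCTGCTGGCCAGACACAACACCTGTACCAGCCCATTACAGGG
Sprr2b: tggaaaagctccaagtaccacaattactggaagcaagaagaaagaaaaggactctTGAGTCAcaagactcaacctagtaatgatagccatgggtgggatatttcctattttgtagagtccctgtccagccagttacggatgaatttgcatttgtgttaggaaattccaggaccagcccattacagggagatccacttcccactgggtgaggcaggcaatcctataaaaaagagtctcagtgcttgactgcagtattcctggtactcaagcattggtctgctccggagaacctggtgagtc

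Aligned end to end, the Sprr2a windows shared 58.7 to 61.7% of the 300 bases with those of the 7 other Sprr2 genes. Those 7 shared 67.3 to 89.7% among themselves. Each window follows the annotated start of its gene, so windows of different genes need not cover matching stretches. The last bases of the Sprr2a1 window recur in that of Sprr2b well before its end. These shares thus depend on the placement of the starts as well as on sequence. The most alike Lce windows, of Lce1g and Lce1h, shared 86.3%. Identity over a whole window was thus seen at Sprr2a1 and Sprr2a2 alone among the 34 genes. Whether the authors kept reads that map equally well to several places is not given in the sources used here. Reads from the copies therefore cannot be told apart where the copies match, and the assignment of a peak to 1 copy is uncertain.

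All 12 treatment peaks lay within 55.4 kb at the Sprr2a end of the complex, and the remaining 768 kb of the region had none. None of the 12 overlapped a control peak, which is the property that put the Sprr2a genes forward and is given as a description. Over the genome, 6.8% of treatment peaks overlapped no control peak, and 29.2% of control peaks overlapped no treatment peak. The nearest control peak was 134 kb from the first of the 12 and 189 kb from the last, so no peak was near the limit of 1 bp of overlap. Outside the region, the nearest treatment peaks lay 135 kb before and 187 kb after the span of the 35 genes. The nearest control peaks lay 134 kb before and 341 kb after it, so the 10 kb added on each side decided no peak of the region.

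**Figure D1:**
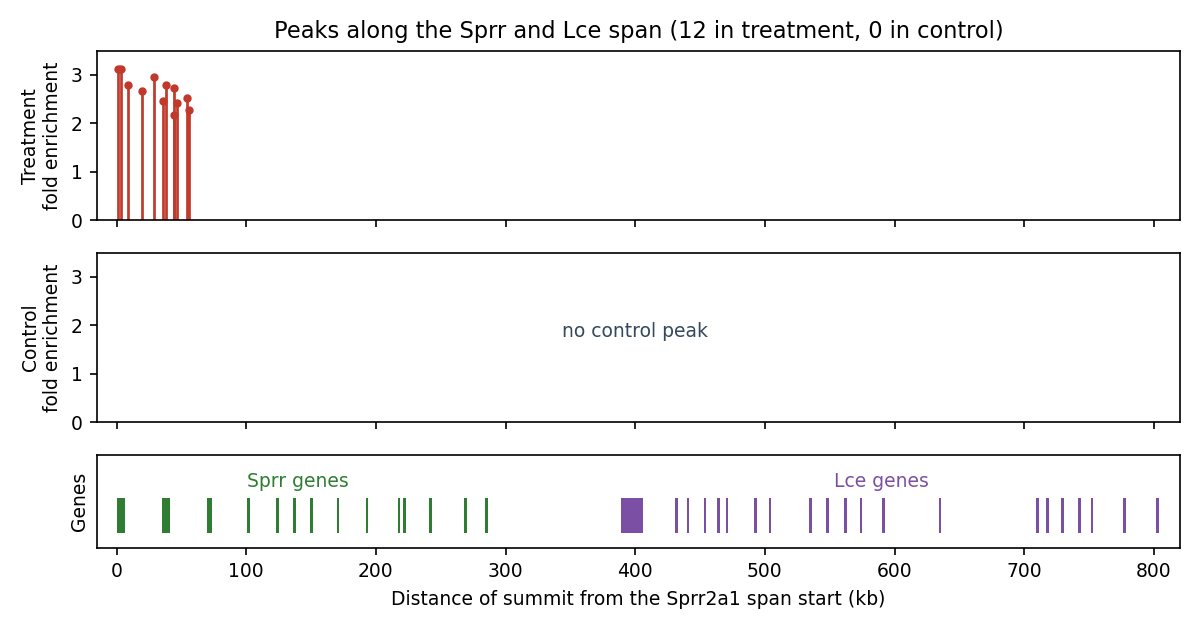
Fold enrichment of each peak (vertical axis) against the distance of its summit from the Sprr2a1 span start in kb (horizontal axis), for the treatment library (top) and the control library (middle), with the spans of the 14 Sprr genes (green) and 21 Lce genes (purple) below. The 12 treatment peaks stand at the left end, between fold enrichments of 2.17 and 3.12, and the control panel is empty.

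Sprr2a1 (chr3:92215835-92222491) had 3 treatment peaks and 0 control peaks within 10 kb of its span. Peak 1, at chr3:92216471-92216742, was 272 bp wide, with a fold enrichment over local background of 3.12 and a −log10 q-value of 10.02. Peak 2, at chr3:92219096-92219440, was 345 bp wide and had the same fold enrichment and q-value. Both lie inside the gene span, and the summit of peak 1 is 732 bp from the gene start. Peak 3, at chr3:92224717-92225028, lies 2226 bp beyond the far end of the span, with a fold enrichment of 2.80 and a −log10 q-value of 7.52. These fold enrichments and q-values are those of the authors' peak caller.

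Sprr2a2 (chr3:92250647-92257304) had 6 treatment peaks and 0 control peaks. Peak 6, at chr3:92251350-92251666, had its summit 878 bp from the gene start, with a fold enrichment of 2.46 and a −log10 q-value of 5.12. Peak 7, at chr3:92253950-92254296, was the other peak inside the span, with values of 2.80 and 7.52. Peak 5, at chr3:92244909-92245155, lies before the gene, at 5492 bp, and with a fold enrichment of 2.96 it came next after peaks 1 and 2 in the region. Beyond the gene came peak 8, at chr3:92259527-92259920, the widest with 394 bp and a fold enrichment of 2.73. Peak 9, at chr3:92260280-92260539, followed after a gap of 359 bp and was the weakest, with a fold enrichment of 2.17 and a −log10 q-value of 3.41. Peak 10, at chr3:92262568-92262871, had a fold enrichment of 2.42 and a −log10 q-value of 4.94, and lies inside Gm5851, an annotated pseudogene.

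Sprr2a3 (chr3:92285304-92289264), the last copy, had 0 peaks in both libraries, and its span lies 13.5 kb from the nearest treatment peak. The other 3 of the 12 peaks fell between the copies, outside the 10 kb windows. Peak 4, at chr3:92234980-92235248, lies 12489 bp from Sprr2a1, with a fold enrichment of 2.67 and a −log10 q-value of 6.84. Peak 11, at chr3:92269831-92270145, lies 12527 bp from Sprr2a2, with values of 2.52 and 5.80. Peak 12, at chr3:92271507-92271846, lies 13458 bp from Sprr2a3, with values of 2.27 and 4.34. The 10 kb limit on a gene's locus thus passes between peak 5, at 5492 bp, and peak 4, at 12489 bp.

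The peaks recurred at like distances along the Sprr2a1 and Sprr2a2 copies. The starts of Sprr2a1 and Sprr2a2 are 34812 bp apart, and those of Sprr2a2 and Sprr2a3 34657 bp apart. Of the 5 peaks between the starts of Sprr2a1 and Sprr2a2, 4 overlapped a peak of the next copy when moved by 34812 bp. Peak 1 met peak 6, peak 2 met peak 7, peak 3 met peak 8 and peak 4 met peak 11, by 205 to 312 bp, with summits 37 to 146 bp apart. The same move brought 8.59% of all treatment peaks, and 5.71% of those found in treatment only, onto a treatment peak. Peak 5 had no counterpart, and peaks 9, 10 and 12 stood in the second copy alone.

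The pseudogenes Gm5850 and Gm5851, each 1287 bp long, follow the first and second copy at a distance of 34802 bp from each other, so the annotation repeats there too. Gm5850 had no peak inside it, while Gm5851 held peak 10. In each of the 4 matched pairs the peak of the first copy had the higher fold enrichment. By pair the values were 3.12 in the first copy against 2.46 in the second, 3.12 against 2.80, 2.80 against 2.73, and 2.67 against 2.52. Read coverage at the summit, recovered as given below, did not follow this order in every pair. It was 49 against 39 reads, 49 against 44, 44 against 45, and 44 against 42. The copies do not give independent values where their reads are shared. The number of Sprr2a copies in the animals behind each library was not measured, and its part in the 12 treatment and 0 control peaks was not tested. No peak of the second copy met one after a move by 34657 bp, and from the start of Sprr2a3 onward the treatment list held 0 peaks in the region.

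**Figure D2:**
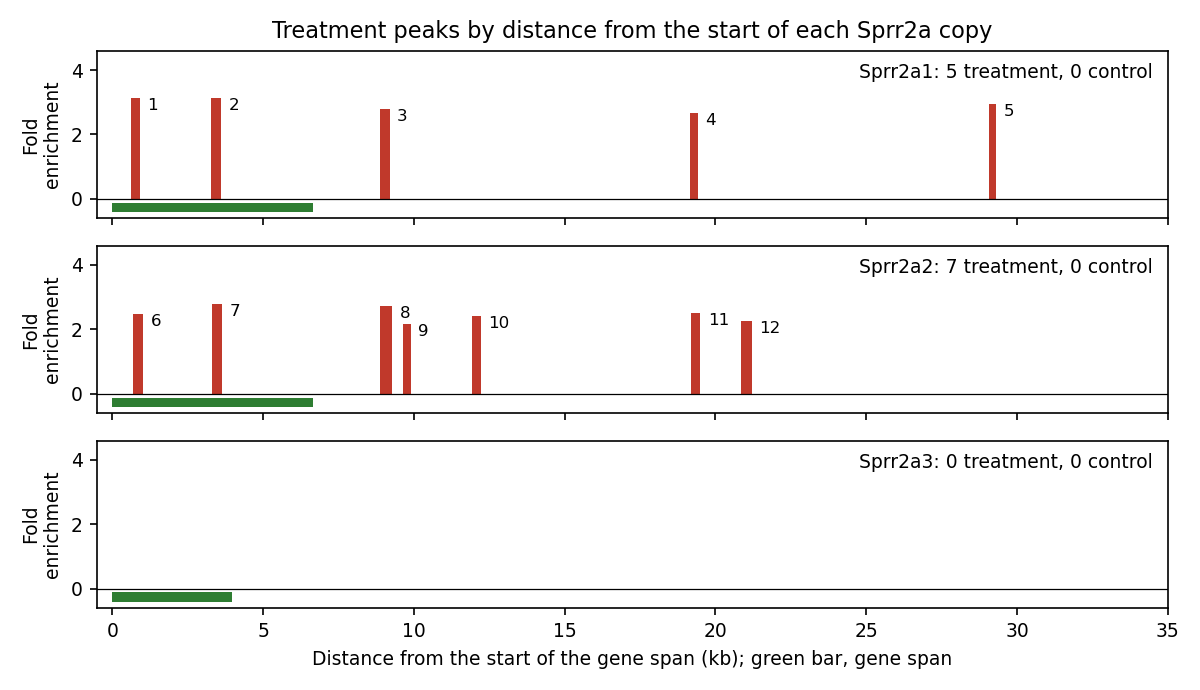
Treatment peaks as bars, with their width in kb on the horizontal axis and their fold enrichment on the vertical axis, by distance from the start of Sprr2a1 (top), Sprr2a2 (middle) and Sprr2a3 (bottom); the numbers are those of the peaks in the text. Peaks 1 to 4 stand at nearly the same distances as peaks 6, 7, 8 and 11, and the Sprr2a3 panel has no peak.

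The 12 peaks were weak ones of the treatment list. Their fold enrichment ran from 2.17 to 3.12, with a median of 2.70. The median of treatment-only peaks over the genome was 2.74, and 7.91 was that of treatment peaks shared with control. Each of the 12 therefore lay low in the treatment list, above 1.91 to 13.4% of its peaks. Among treatment-only peaks, 5 of them were above that median and 7 below. None was past the upper quartile of 3.61, while peaks 9 and 12 fell under the lower quartile of 2.37.

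A −log10 q-value of at least 10 was reached by 2 of the 12, peaks 1 and 2, against 90.5% of all treatment peaks and 45.3% of treatment-only peaks. At least 5 was reached by 9 of the 12, for which no share over the genome is given here. Widths ran from 247 to 394 bp with a median of 313.5 bp, against a median of 273 bp for treatment-only peaks and 560 bp for shared treatment peaks. Each of the 12 was thus narrower than the shared median, and 8 of them were wider than the treatment-only median. Together they covered 3722 bp.

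**Figure D3:**
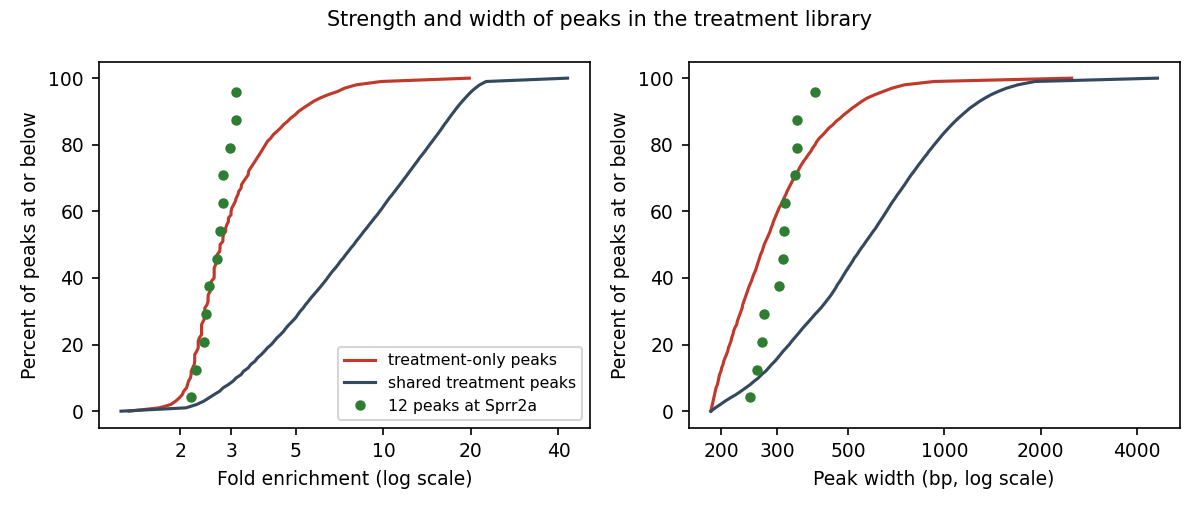
Share of peaks at or below a given fold enrichment (left) and width in bp (right), both on log scales, for treatment-only peaks (red line), treatment peaks shared with control (dark line) and the 12 peaks at and between the Sprr2a copies (green points). The points follow the red line at fold enrichments of 2.17 to 3.12 and end below its upper part, and in width they lie from 247 to 394 bp.

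Read coverage at the summit, recovered from the fold enrichment and p-value of each peak, was 36 to 49 reads at the 12 peaks, with a median of 44. The median over treatment-only peaks was 51 reads. The local background at the 12 peaks was 15.0 to 17.0 reads, and the genome-wide floor of the treatment library was 15.0 reads. The 12 peaks thus stood on a background at most 1.13 times that floor, and 4 of them were at it. Over the genome, 33.2% of all treatment peaks and 60.1% of treatment-only peaks were at the floor, so this is no trait of the 12. The control list held peaks down to a summit coverage of 29 reads on a floor of 14.2 reads. Coverage of the control library at the places of the 12 peaks is not given by its list, so how far below the threshold it lay was not measured.

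Every other gene of the set had no peak in either library within 10 kb. The Sprr genes without one numbered 12: besides Sprr2a3 these were Sprr2b, Sprr2d, Sprr2e, Sprr2f, Sprr2h, Sprr2i and Sprr2k, the other epidermal and epithelial Sprr2 proteins, Sprr1a and Sprr1b, early cross-linked envelope precursors, Sprr3, known from the oesophagus, and Sprr4. All 21 Lce genes had 0 in treatment and 0 in control. These are the Lce1 genes Lce1a1, Lce1a2 and Lce1b to Lce1m, the Lce3 genes Lce3a to Lce3f, and Lce6a. In human skin, members of the LCE3 group are known for induction after barrier damage.

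Over all protein-coding genes, 20.2% had no locus peak in either library, against 33 of the 35 Sprr and Lce genes. A control locus peak was found at 79.4% of all genes and at 0 of the 35, and a treatment locus peak at 76.2% of all genes and at 2 of the 35. Treatment peaks without any control peak in the locus were found at 0.393% of all genes. At least 3 such peaks were found at 0.0457% and at least 6 at 0.0137%, or 3 genes, of which Sprr2a2 is 1. The other two were 9530057J20Rik on chromosome 8, with 8 treatment and 0 control peaks, and Tcp10c on chromosome 17, with 7 and 0. The genes were put forward for this pattern, so their place among all genes is a description.

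In bins of 100 kb, the one that holds the Sprr2a copies had 12 treatment-only peaks and 0 control peaks. At least 12 treatment-only peaks were found in 5 of 27233 bins, or 0.0184%. The other 4, all on chromosome 8, held 2 to 10 control peaks as well, so the Sprr2a bin was the one of the 5 without a control peak. At least 1 treatment-only peak and no control peak was found in 1.18% of bins. The control library had no peak over 1.28 Mb, from a peak at Lor to one beyond Flg2, and 0.311% of the gaps between neighbouring control peaks were at least as long.

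The promoter identity of Sprr2a1 and Sprr2a2 is shared by other genes. Another protein-coding gene with the same 300 bases was found for 398 genes, and 75.6% of these had no locus peak in either library, against the 20.2% of all protein-coding genes. Treatment peaks without control peaks were found at 2 of the 398 loci, or 0.503%, near the 0.393% of all genes. These were Sprr2a1 and Sprr2a2, which had been put forward for this pattern, so nothing is read from the share. A window compares the promoter alone and shows neither how far a duplication extends nor how reads were mapped.

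The motifs found in the promoter windows differed between the Sprr2a copies and the rest of the family. The AP-1 motif, TGANTCA, was searched on both strands and was in 0 of the 3 Sprr2a windows and 7 of the 7 other Sprr2 windows, as at Sprr2b above. It was also in the windows of Sprr1a and Sprr1b, in 0 of 20 Lce windows, and in 7.81% of all 32851 windows of the table. AP-1 is known as a family of factors that act in keratinocyte differentiation. A Stat6 motif, TTC and GAA with 4 bases of any kind between, was in the 3 Sprr2a windows, in no other Sprr or Lce window, and in 6.95% of all windows. The match lies in the 272 bases that the 3 windows share, so this is 1 observation and not 3. The lack of AP-1 at the 3 rests largely on the same bases. The 7 other Sprr2 windows shared 67.3 to 89.7% among themselves, so they are not 7 independent observations either. The search covered the windows alone, and windows of different genes need not cover matching stretches. A motif absent from another window may therefore lie outside it, which was not searched.

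An interferon response motif, GAAA and again GAAA with 2 bases of any kind between, was in 0 of 34 windows of the set and in 3.44% of all windows. The Klf and Sp motif GGGNGGG was in 3 Sprr windows, those of Sprr2b, Sprr2h and Sprr2k, in 2 Lce windows and in 48.1% of all. No peak covered a promoter window of the set. The nearest, peak 1, began 587 bp after the Sprr2a1 window, and peak 6 began 654 bp after that of Sprr2a2.

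The surrounding complex was sparse too. Of 16 other listed genes of the complex, 13 had no locus peak in either library, Ivl, which encodes involucrin, and Flg, which encodes filaggrin, among them. Lor, which encodes loricrin, the main protein of the envelope, had 1 peak in each library, with a fold enrichment of 3.12 in treatment and 6.27 in control. Tchh, which encodes trichohyalin of hair follicles, likewise had 1 in each, with 8.75 and 10.49. At both genes the 2 peaks overlapped. Flg2, which encodes filaggrin 2, had 2 treatment peaks and 0 control peaks, with fold enrichments of 3.57 and 2.12 and summit coverages of 57 and 33 reads. The stronger of these, at chr3:93205834-93206899, was 1066 bp wide, more than any of the 12 peaks of the Sprr and Lce region.

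The S100a genes flank the complex and encode calcium-binding proteins, several of which act outside the skin. All 15 had a locus peak in at least 1 library, with 45 in treatment and 62 in control when summed over genes, and neighbouring loci share peaks. In this list 1 gene had more peaks in treatment, 11 had fewer and 3 had as many. Over all protein-coding genes 5.65% had more and 44.7% had fewer, so fewer peaks in treatment was the more common direction in general. S100a3 had 6 in treatment and 11 in control, S100a10 had 6 and 7, S100a6 had 6 and 6, and S100a5 had 5 and 6. The gene with more was S100a7l2, named after its values were seen, with 2 treatment peaks and 0 control peaks at fold enrichments of 2.37 and 2.18. From S100a1 to S100a10, a stretch of 3.07 Mb, treatment had 48 peaks, of which 17 overlapped no control peak, and control had 46, of which 14 overlapped no treatment peak. The Sprr and Lce region thus held 12 of these 17.

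**Figure D4:**
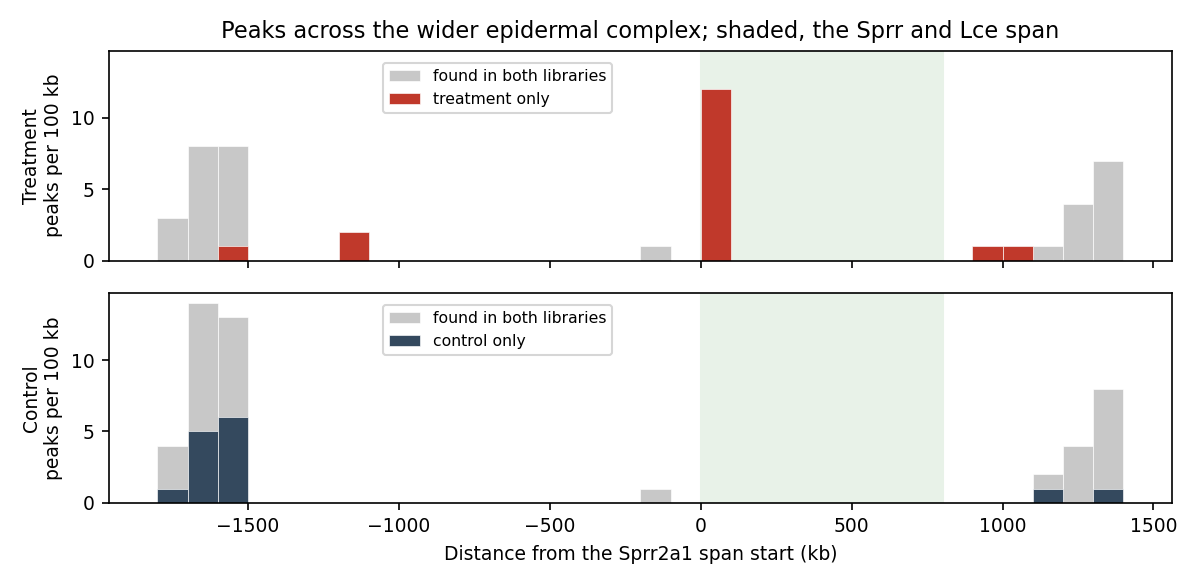
Peaks per 100 kb (vertical axis) across the wider complex from S100a1 to S100a10, by distance from the Sprr2a1 span start in kb (horizontal axis), for treatment (top) and control (bottom). Each bar is the total, its coloured lower part is the share without overlap in the other library, and the shaded part is the Sprr and Lce span, where treatment has 12 peaks in 1 bin and control has none.

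Among 21 keratinocyte markers, the gene-end counts were equal in the libraries. Of these genes, 11 had a gene-end peak, with its summit within 1 kb of either end of the span, in treatment and 11 in control, and of all protein-coding genes 58.8% had one in treatment and 62.9% in control. Their loci held 35 treatment peaks and 48 control peaks, with 1 gene higher, 9 lower and 11 equal, against the 5.65% higher and 44.7% lower of all genes. By gene, Cdh1 (E-cadherin) had 7 in treatment and 11 in control, Grhl3, a factor of barrier formation, had 5 and 5, Sfn had 5 and 5, and Dsp (desmoplakin) had 3 and 4. The gene with more was Ovol1, with 3 in treatment and 2 in control. Treatment had 0 locus peaks at 10 of the 21 and control at 4. Krt5, Krt6a, Dsc3 and Dsg3 had 0 in both libraries. Krt14, Krt15, Krt16, Krt17 and Trp63, which encodes p63, had 0 in treatment and 1 each in control, and Tgm3 had 0 and 3. The loci of Krt16 and Krt17 overlap, so the same control peak may be counted at both. Counts were equal and above 0 at Krt1 and Klf4 (2 and 2), Perp and Tgm1 (3 and 3) and Epcam (1 and 1), and Krt10 had 1 and 2. T cell markers had a gene-end peak at 12 of 12 genes in treatment and 11 of 12 in control. By the same measure keratinocyte markers had 11 of 21 in each, so such a peak does not by itself identify the cells. Lck had 10 locus peaks in treatment and 12 in control. The counts were 11 and 9 at Cd8b1, 8 and 10 at Cd2, and 11 and 7 at Cd5. The part of other cells in the Sprr2a peaks was not tested.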

How the data were processed

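ATAC-seq peaks of 2 libraries of mouse CD8+ T cells were grouped by library title. Per the submitters' processing notes, the authors used cutadapt 2.5, Bowtie2 2.3, Picard 2.20 and MACS2 with the build mm10, and the deposited lists were called per library. Each deposited peak carries the authors' fold enrichment as a ratio, the authors' −log10 p-value and −log10 q-value, and the score of the authors' caller, which was not used. The lists held 65098 treatment and 85285 control peaks, contigs other than chromosomes 1 to 19, X and Y were left out, and the lowest −log10 q-value was 2.00 in each.

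Gene spans and promoters came from RefSeq tables of GRCm38.p6, without exons. Sharing of a peak needed 1 bp of overlap with the other list, and a locus was a gene span with 10 kb on each side. Summit coverage and local background were solved from the fold enrichment and p-value, to within 0.001 in −log10 p for 99.977% of treatment and 99.994% of control peaks, and checked on simulated peaks. The lists give no read totals. All 35 genes and all 12 peaks were described, and other lists by counts with up to 4 examples, those with the most locus peaks. Beyond these, S100a7l2, Ivl, Flg and the remaining keratinocyte markers were named after their values were seen. The genes, lists and motifs were chosen with earlier results of these data known. Alternatives changed the extension, the overlap rule, the q-value threshold and the list length. Python 3.11.15, pandas 2.3.3, SciPy 1.17.1 and Biopython 1.88 were used.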

Additional observations from a re-analysis of the deposited data

How the results depend on the processing

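With 9 alternative settings, 39 of 44 values for the region, its treatment-only and control-only peaks, the Sprr2a loci, widths and fold enrichment stayed within 1.5 times the reported count or 1 SD of the 12 peaks. The control count was 0 under every setting tried, which was fixed in advance. The nearest control peak lay 134 kb from the span, the widest setting added 50 kb, and the others added no peaks. Such control counts of 0 are among the 44 values and among the counts for single genes below. The treatment-only counts were likewise fixed under the other overlap rules, as the nearest control peak was that far away. The region's treatment values could not change without an extension or with 50 kb. Its 12 peaks lie inside the span, and the next treatment peak is 135 kb from it. At single genes, a treatment count of 0 could not rise with fewer peaks or narrower windows. Both tallies therefore consist mostly of values that could not move, and neither measures robustness. With gene spans alone, the treatment-only peaks at the Sprr2a loci numbered 4 in place of 9. With peaks under a −log10 q-value of 10 removed, the region held 2 treatment peaks, 2 of them treatment-only and 2 at the Sprr2a loci, with a median fold enrichment of 3.12. Sprr2a2 then had 0 peaks, and Sprr2a1 kept peaks 1 and 2. Of 350 counts for single genes, 344 stayed within 1.5 times: with 50 kb on each side Sprr2a1 and Sprr2a2 had 12 treatment peaks each, Sprr2a3 had 8 and Sprr2b had 2. Fewer peaks kept and wider or narrower windows give these shifts by construction. No paired analysis was possible because each group has 1 library. The 12 peaks had 36 to 49 reads at their summit, where the lowest of the treatment list was 31. A peak list does not show coverage below the caller's limit, and 1 library per group gives no estimate of the spread between libraries.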
